A study of Saccharomyces cerevisiae with 4 samples.

Results

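The genes described here make and handle the membrane lipids of budding yeast: sterols, sphingolipids and their ceramide precursors, phospholipids, fatty acids and the lipases of lipid stores. They were taken by gene symbol, as every probe with exactly 1 platform symbol of a set of lipid gene names (ERG, LCB, INO, OPI, CHO, FAS, FAA, TGL and others followed by a number) and a value on all 4 arrays. This gave 54 genes from 59 probes, out of 3099 named genes and 5946 features in all. By role 15 belong to the sterol branch, 8 to the ceramide branch, 16 to the phospholipid branch, 7 to the fatty acid branch and 4 to storage lipid breakdown. The other 4 share the naming pattern and have another main role. INO80 encodes the ATPase of a chromatin remodeller, LAG2 an inhibitor of cullin modification, SUR7 a protein of plasma membrane eisosomes and OPI10 a member of the Hikeshi family.

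Both strains were transformants of W303-1A, a laboratory strain of Saccharomyces cerevisiae. The CadA strain made the metal-transporting P-type ATPase CadA of the bacterium Listeria monocytogenes, and the D398A strain made a mutant of it in which alanine replaces an aspartate. Both were grown to an OD600 of 0.4 at 30 °C in minimal medium with amino acids and adenine, and both received 1 µM cadmium for 1 h, so no untreated cells enter any value. Both RNAs were hybridised on each of 4 spotted two-colour arrays, with CadA in Cy5 on arrays 1 and 3 and in Cy3 on arrays 2 and 4. The promoter and vector of the transporter, and whether the arrays came from separate cultures, are not given in the labels, so the spread behind each p-value is that of these 4 arrays and could be technical in part.

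Most yeast lipids are made in the membrane of the endoplasmic reticulum (ER). Acetyl-CoA feeds the mevalonate and sterol route to ergosterol, and carboxylation of acetyl-CoA starts fatty acid synthesis. Serine and palmitoyl-CoA give the long-chain bases of ceramide. Phospholipid genes are switched on by the activator pair Ino2 and Ino4 and held back by the repressor Opi1, which senses phosphatidic acid at the ER. The unfolded protein response of the ER is known to interact with this circuit in yeast, and sterol genes have an activator of their own, Upc2.

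The deposited value is a normalized log ratio of both strains, taken here as log2, and its numerator is not stated. Values are therefore given with signs turned by the dye labels: kept on arrays 2 and 4 and reversed on arrays 1 and 3. Positive values then lie on the side of KAR2, the main ER chaperone gene, which read 0.28, 0.80, 0.85 and 2.23 on arrays 1 to 4 (mean 1.04 ± 0.84, SD, n = 4; limma adjusted p = 1.00). In deposited signs KAR2 averaged 0.48 ± 1.36. Its side in turned signs is CadA if Cy3 was the numerator and D398A if Cy5 was, so no gene below is called higher in either strain. If the table had already been turned to 1 direction, the signs as deposited apply instead, and the turned mean is then a dye effect. Both readings are given for the main counts and the branch medians, because the mean in deposited signs follows from the same 4 values. Some single genes are given in turned signs alone, and values are turned unless deposited signs are named. The sign of the mean differed between the readings for 24 of the 54, so a lone turned sign gives no direction. The spread of all probes was wider on arrays 1 and 2 (SD 0.87 and 0.95) than on arrays 3 and 4 (0.46 and 0.47), and differences between the 48 print blocks made up 10.8% to 38.5% of the variance. The largest absolute value of a gene fell on array 1 or 2 for 42 of the 54.

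In turned signs no lipid gene passed the test. Of the 54, 0 passed limma's test of the mean against 0 after Benjamini-Hochberg adjustment over all 5946 features, where 0.0% of all features passed (smallest adjusted p of any feature 0.46). At an unadjusted p below 0.05 the count was again 0 of 54, against 1.88% of all features. Means were positive for 27 genes and negative for 27, and 47.4% of all features had a positive mean. The median of the 54 means was 0.00060, against -0.015 for all features, and their median absolute size was 0.18, against 0.17. For 49 of the 54 the SD over the arrays exceeded the size of the mean.

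The number of arrays limited the precision. The 95% interval of a mean, from limma's spread, reached 0.71 to either side for the median lipid gene, or 0.70 for the median feature. These intervals are not adjusted for the number of features tested. Leaving out 1 array changed the sign of the mean for 37 of the 54. A single sign on every array was found for 4 genes, or 7.41%, against 6.98% of all features, so the share was near the background. These were PLB3 on the positive side (1 gene, against 3.4% of all features) and ERG28, INO2 and OPI10 on the negative side (3 genes, against 3.58%). A mean of at least 0.5 in size was reached by 5 genes, or 9.26%, against 8.73% of all features. They were ERG27, ACB1, TGL1 and LAG1 above 0 and ELO1 below.

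**Figure D1:**
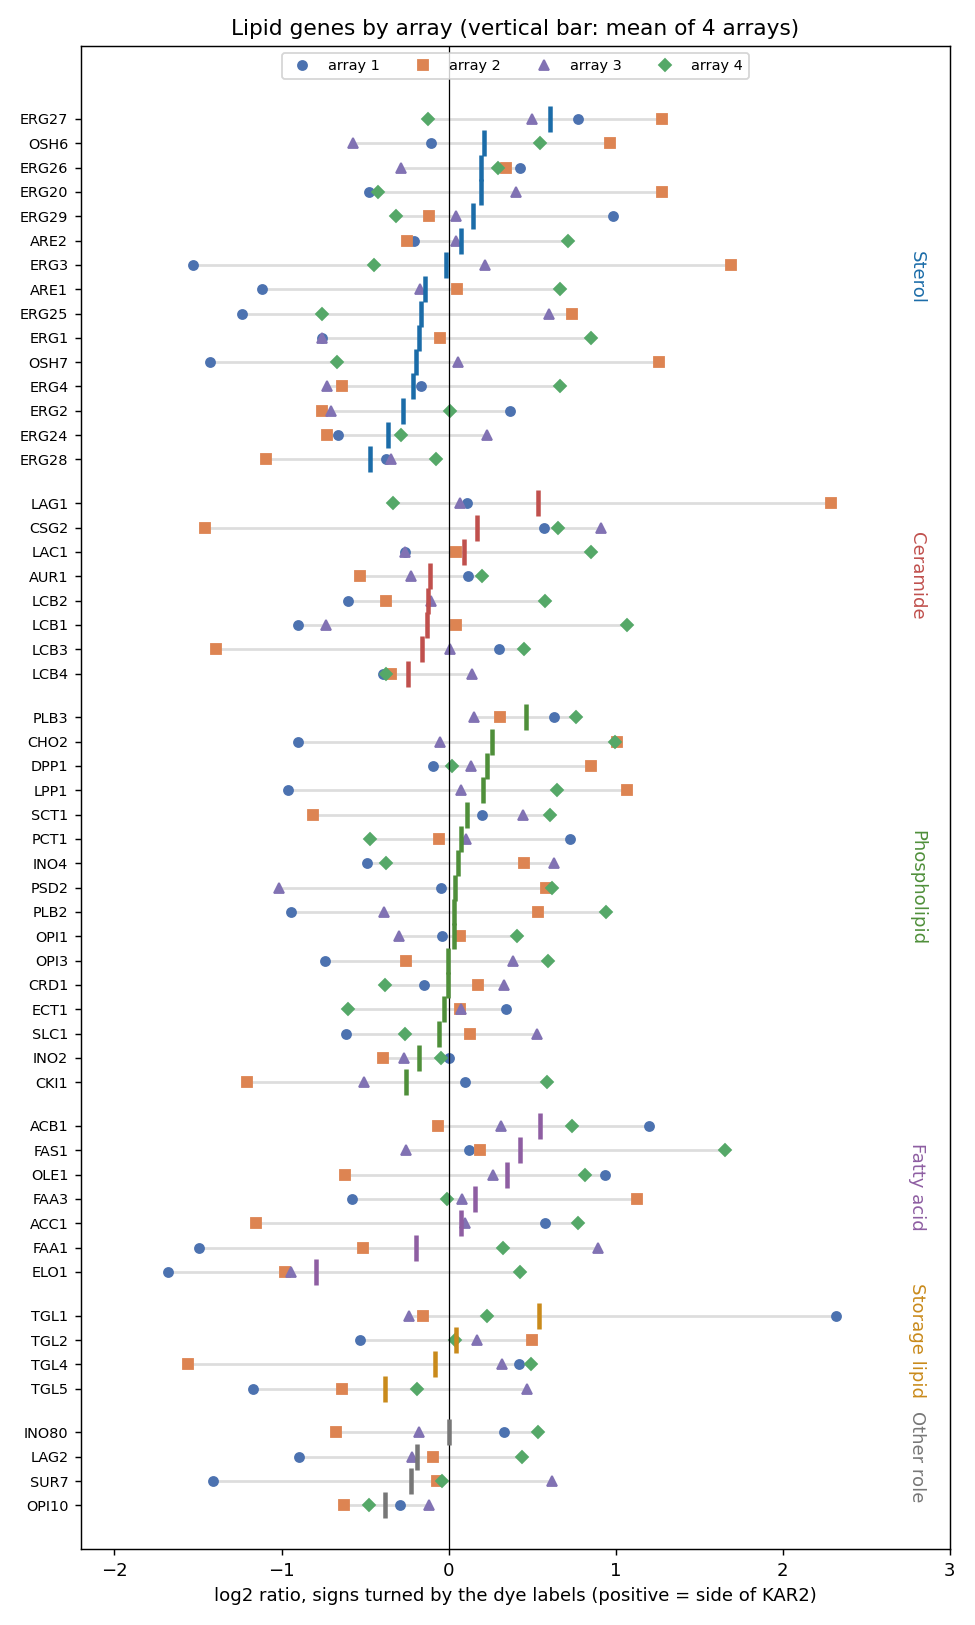
Log2 ratio of each of the 54 genes on each array (x axis, signs turned by the dye labels, positive on the side of KAR2), with genes as rows sorted by mean within their branch. Symbols are the 4 arrays, grey lines span their range and vertical bars are means; only PLB3, ERG28, INO2 and OPI10 lie on 1 side of 0 on every array.

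The sterol branch held genes on both sides of 0. Of its 15 genes 6 had a positive mean, and the median was -0.14. At the head of the route, ERG20, which makes farnesyl pyrophosphate, read -0.48, 1.28, 0.40 and -0.42 on arrays 1 to 4 (mean 0.19 ± 0.83). The 2 orientations thus each held 1 high and 1 low array. ERG1 (YGR175C), squalene epoxidase, read -0.76, -0.050, -0.76 and 0.85 and averaged -0.18 ± 0.76. Arrays 1 and 3 were low and array 4 was high. The mevalonate genes HMG1 and HMG2, the lanosterol demethylase gene ERG11 and the regulator gene UPC2 were not analysed here.

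The genes for removal of the methyl groups of lanosterol lay on both sides of 0, with 3 of 6 positive and a median of -0.0066. ERG27 (YLR100W), a keto sterol reductase, had the highest turned mean of the 54 genes at 0.61 ± 0.58, but a mean of -0.029 ± 0.91 in deposited signs. It read 0.78, 1.28, 0.50 and -0.12 on arrays 1 to 4, and only array 4 was below 0. Its limma 95% interval ran from -0.084 to 1.30, and its mean was 0.38 without array 2. ERG28 (YER044C), an ER protein that holds the demethylation enzymes together, had the lowest mean of the branch at -0.47 ± 0.44. It read -0.38, -1.10, -0.34 and -0.075, below 0 on every array and near 0 on array 4. Its interval of -1.12 to 0.18 included 0, and without array 2 its mean was -0.26. In deposited signs ERG28 averaged -0.11 ± 0.69. The enzymes of the same complex differed in sign. ERG26, the sterol dehydrogenase gene, averaged 0.20 ± 0.33 and was below 0 on array 3 alone. ERG25, the methyl sterol oxidase gene, read -1.23, 0.74, 0.60 and -0.76 (mean -0.16 ± 0.98), so that arrays of each orientation opposed each other. ERG29, of the same oxidation step, averaged 0.15 ± 0.58. ERG24, the reductase gene that follows ERG11, averaged -0.36 ± 0.44 and was above 0 on array 3 alone.

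The late sterol genes all had negative means in turned signs without passing the test, where 47.4% of all features had a positive mean. ERG2, the sterol isomerase gene, averaged -0.27 ± 0.55, and ERG4, the last reductase gene of the route, -0.22 ± 0.64. ERG3, the sterol desaturase gene, had the widest range of the 3, at -1.53, 1.69, 0.22 and -0.45 (mean -0.017 ± 1.35). Arrays 1 and 2 stood farthest apart. After centring of the print blocks its mean was -0.32, and that of ERG25, printed in the same block 45, was -0.46. In deposited signs 2 of the 3 late genes had positive means, ERG3 at 0.64 ± 1.13 and ERG4 at 0.23 ± 0.63, while ERG2 averaged -0.10 ± 0.62.

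Genes for sterol esters and for lipid transfer had small means beside their spread. ARE1 and ARE2, both encoding sterol acyltransferases, averaged -0.14 ± 0.74 and 0.075 ± 0.44. OSH6 and OSH7 belong to the oxysterol-binding family and are known to carry phosphatidylserine to the plasma membrane. Their means were 0.21 ± 0.68 and -0.20 ± 1.14 in turned signs, and 0.55 ± 0.35 and 0.49 ± 1.02 in deposited signs. Both were counted in the sterol branch, and its counts and medians were not computed without them. ARE1 with ARE2 and OSH6 with OSH7 are related gene pairs, and how far their probes share signal was not tested.

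In the ceramide branch 3 of 8 genes had a positive mean, with a median of -0.12. All 4 genes of the long-chain bases had negative means in turned signs, between -0.24 and -0.13, where 47.4% of all features had a positive mean. LCB1 and LCB2 encode the core of serine palmitoyltransferase, the first enzyme of the route. LCB1 (YMR296C) read -0.90, 0.042, -0.73 and 1.07 on arrays 1 to 4 (mean -0.13 ± 0.90). LCB2 (YDR062W) read -0.60, -0.37, -0.11 and 0.58 (mean -0.13 ± 0.51). Both were lowest on array 1 and highest on array 4. Their means lie close together, and each SD is larger than its mean. LCB4, a long-chain base kinase gene, had the lowest mean of the branch at -0.24 ± 0.26, with -0.39, -0.35, 0.14 and -0.37 on arrays 1 to 4. Only array 3 was above 0, and the deposited mean was -0.12 ± 0.36. LCB3, the phosphatase gene that acts against it, averaged -0.16 ± 0.84, and 0.25 without array 2. In deposited signs 2 of the 4 had positive means, LCB1 at 0.69 ± 0.45 and LCB2 at 0.23 ± 0.46, while LCB3 averaged -0.31 ± 0.78.

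Of the 4 genes from ceramide onward, 3 had positive means in turned signs, against 47.4% of all features, and 2 in deposited signs. LAG1 and LAC1 encode the paired ceramide synthases. LAG1 (YHL003C) had the highest mean of the branch at 0.53 ± 1.19, and it read 0.11, 2.29, 0.066 and -0.33 on arrays 1 to 4. Array 2 alone carried this mean, which was -0.052 without it and 0.25 after centring of the print blocks. The deposited mean was 0.45 ± 1.23. LAC1 averaged 0.094 ± 0.53, and its arrays other than array 4 lay at 0.045 or below. CSG2, a subunit of the enzyme that adds mannose to inositol phosphorylceramide, read 0.57, -1.46, 0.91 and 0.66 (mean 0.17 ± 1.09). Its 3 other arrays lay above 0, and its mean was 0.71 without array 2. The deposited mean of CSG2 had the opposite sign, at -0.57 ± 0.90. AUR1 (YKL004W), the inositol phosphorylceramide synthase gene, averaged -0.11 ± 0.33 and read 0.12, -0.53, -0.22 and 0.20, near 0 beside its spread. The hydroxylase gene SUR2 was not analysed here.

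Phospholipid genes had small means in turned signs. Of the 16 genes 10 had a positive mean, the median was 0.036, and the median absolute mean was 0.065, against 0.17 for all features. In deposited signs the median absolute mean was 0.21, against 0.28 for all features. The regulators had small values. INO2 (YDR123C) read -0.00035, -0.39, -0.27 and -0.048 on arrays 1 to 4 (mean -0.18 ± 0.19). It was below 0 on every array, but on array 1 by less than 0.01. Its partner INO4 (YOL108C) read -0.49, 0.45, 0.63 and -0.38 (mean 0.054 ± 0.57). The repressor gene OPI1 (YHL020C) read -0.040, 0.066, -0.30 and 0.41 (mean 0.035 ± 0.29). The 95% intervals were -0.77 to 0.42 for INO2, -0.63 to 0.74 for INO4 and -0.58 to 0.65 for OPI1, and each included 0. Their main target genes INO1 and CHO1 were not analysed here.

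The methylation route to phosphatidylcholine had means of both signs. CHO2 (YGR157W), the first methyltransferase gene, read -0.90, 1.01, -0.049 and 0.99 (mean 0.26 ± 0.92). Arrays 2 and 4 were high and array 1 was low. OPI3 (YJR073C), the second methyltransferase gene, read -0.74, -0.26, 0.39 and 0.59 (mean -0.0036 ± 0.61), with arrays 1 and 2 below 0 and arrays 3 and 4 above. PSD2, a phosphatidylserine decarboxylase gene of the Golgi and endosomes, averaged 0.037 ± 0.76 and read -1.01 on array 3. In the salvage route, the choline kinase gene CKI1 had the lowest mean of the branch at -0.26 ± 0.77, with 0.10, -1.21, -0.50 and 0.59 on arrays 1 to 4. Array 2 was the low one, and the mean was 0.061 without it and -0.053 ± 0.83 in deposited signs. PCT1 and ECT1, which activate choline and ethanolamine with CTP, averaged 0.076 ± 0.50 and -0.029 ± 0.40.

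Genes around phosphatidic acid had small positive means in 3 of 4 cases in turned signs, and positive means in 2 of 4 in deposited signs. DPP1 and LPP1, phosphatase genes that act on it, averaged 0.23 ± 0.43 and 0.21 ± 0.88. The acyltransferase genes SCT1 and SLC1, which build it, averaged 0.11 ± 0.64 and -0.054 ± 0.49. CRD1, the cardiolipin synthase gene, averaged -0.0054 ± 0.32. PLB3 (YOL011W), a phospholipase B gene, had the highest mean of the branch at 0.46 ± 0.28. It read 0.63, 0.31, 0.15 and 0.76, above 0 on every array. Its interval of -0.15 to 1.08 included 0, and its mean was 0.46 after centring of the print blocks and between 0.36 and 0.57 when 1 array was left out. In deposited signs, however, PLB3 averaged 0.073 ± 0.60, with arrays on both sides of 0. PLB2, a second phospholipase B gene, averaged 0.035 ± 0.86.

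In the fatty acid branch 5 of 7 genes had a positive mean, and the median was 0.16. The 3 measured genes of synthesis and desaturation were all positive in mean in turned signs, where 47.4% of all features were. ACC1 (YNR016C), acetyl-CoA carboxylase, read 0.58, -1.16, 0.10 and 0.77 on arrays 1 to 4 (mean 0.074 ± 0.87). FAS1 (YKL182W), a fatty acid synthase subunit, read 0.12, 0.19, -0.25 and 1.66 (mean 0.43 ± 0.84). OLE1 (YGL055W), the fatty acid desaturase gene that yields oleic and palmitoleic acid, read 0.94, -0.62, 0.27 and 0.82 (mean 0.35 ± 0.71). All 3 were highest or close to it on array 4, and the mean of FAS1 was 0.019 without that array. ACC1 and OLE1 were below 0 on array 2 alone. In deposited signs 1 of the 3 had a positive mean, FAS1 at 0.49 ± 0.79, while ACC1 averaged -0.27 ± 0.82 and OLE1 -0.25 ± 0.76. FAS2 was not analysed here.

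ELO1 and ACB1 marked the ends of the fatty acid branch. ELO1 (YJL196C), an elongase of medium-chain acids, had the lowest turned mean of the 54 genes at -0.79 ± 0.88. It read -1.68, -0.98, -0.94 and 0.43, with 3 arrays near or below -0.94 and array 4 above 0. Its limma 95% interval of -1.61 to 0.016 just included 0 (unadjusted p = 0.054, adjusted p = 1.00, negative on 3 of 4 arrays). The mean was -0.82 after centring of the print blocks, -0.50 without array 1 and -1.20 without array 4. In deposited signs it had the opposite sign, at 0.52 ± 1.12. ACB1 (YGR037C), the acyl-CoA binding protein gene, had the highest turned mean of the branch at 0.55 ± 0.55 and read 1.20, -0.064, 0.32 and 0.74. Its deposited mean had the opposite sign, at -0.21 ± 0.80. In turned signs array 2 lay near 0 and the others above it, and the mean was 0.33 without array 1. The acyl-CoA synthetase genes FAA1 and FAA3 averaged -0.20 ± 1.04 and 0.16 ± 0.71.

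Lipases of lipid stores had means of both signs. TGL1 (YKL140W), a steryl ester hydrolase gene, read 2.32, -0.15, -0.24 and 0.23 (mean 0.54 ± 1.20). Array 1 alone carried the mean, which was -0.054 without it, and the deposited mean was -0.50 ± 1.22. TGL5 (YOR081C), a triacylglycerol lipase gene, had the lowest mean of the group at -0.38 ± 0.70 and read -1.17, -0.64, 0.47 and -0.19. It averaged -0.031 ± 0.82 in deposited signs. TGL4, its close relative, averaged -0.079 ± 0.99 and read -1.56 on array 2. TGL2, a mitochondrial lipase gene, averaged 0.044 ± 0.43. Among the genes that share only the naming pattern, OPI10 (YOL032W) read -0.29, -0.63, -0.12 and -0.48 (mean -0.38 ± 0.22), below 0 on every array, and averaged -0.17 ± 0.45 in deposited signs. INO80 had the highest mean of the 4 at 0.0048 ± 0.54 and read 0.33, -0.67, -0.18 and 0.54. LAG2 averaged -0.19 ± 0.55 and SUR7 -0.23 ± 0.85.

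The branches were compared through the median of their genes on each array. The sterol medians were -0.38, 0.050, 0.044 and -0.075 on arrays 1 to 4, the ceramide medians -0.075, -0.36, -0.049 and 0.51. The phospholipid medians were -0.068, 0.15, 0.089 and 0.50, and the fatty acid medians 0.12, -0.51, 0.10 and 0.74. Medians of all features were 0.032, -0.079, -0.013 and 0.023. Array 4 stood high for ceramide, phospholipid and fatty acid genes but not for sterol genes, and array 2 was lowest for ceramide and fatty acid genes. Over all 4 arrays the median of the gene means was 0.16 for fatty acid, -0.12 for ceramide and 0.036 for phospholipid genes. Without array 4 these medians were 0.019, -0.21 and 0.017, and without array 2 they were 0.48, -0.0060 and -0.023. Why these 2 arrays stood apart was not tested.

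Among the 6 overlapping pairs of branches 1 difference had 1 sign on all arrays, and whether that exceeds chance was not tested. It was sterol minus phospholipid, at -0.31, -0.10, -0.044 and -0.57 (mean -0.26 ± 0.24, SD, n = 4). In deposited signs it averaged -0.081 ± 0.37 and was positive on 2 of 4 arrays, so the single sign held in the turned reading alone. Sterol minus ceramide averaged -0.10 ± 0.44 and sterol minus fatty acid -0.20 ± 0.60. Ceramide minus phospholipid averaged -0.16 ± 0.24, ceramide minus fatty acid -0.10 ± 0.17 and phospholipid minus fatty acid 0.056 ± 0.42. In 5 of these 6 pairs the SD exceeded the mean, and no p-value is given for them. In deposited signs the 6 means lay between -0.088 and 0.16, and each SD exceeded its mean. Without array 1 the sterol median changed sign to 0.17, and after centring of the print blocks the medians were -0.11 for sterol, -0.033 for ceramide, -0.013 for phospholipid and -0.00050 for fatty acid genes.

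**Figure D2:**
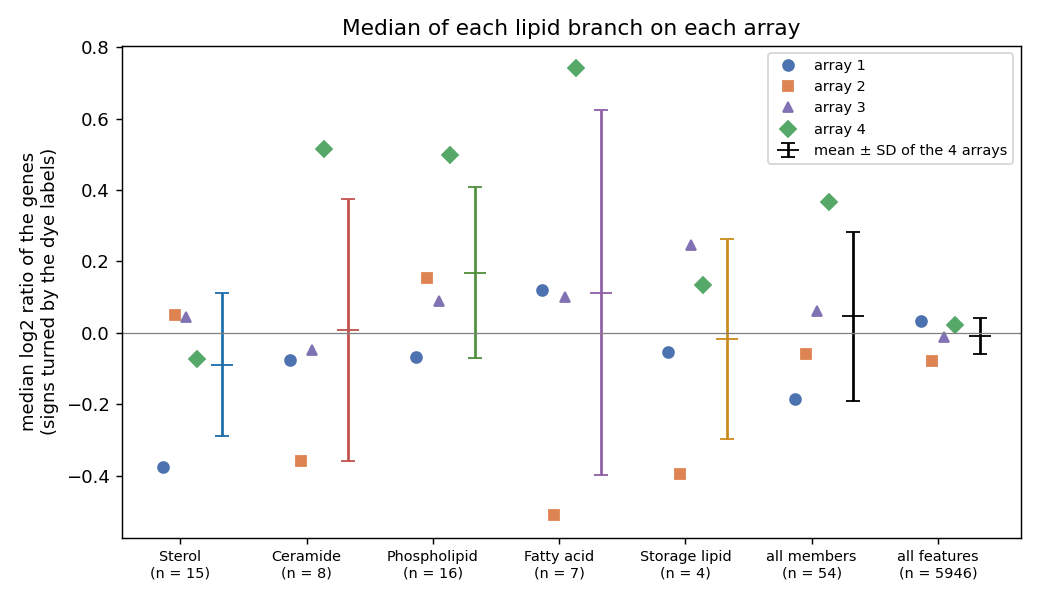
Median log2 ratio (y axis, turned signs) of the genes of each branch on each of the 4 arrays, beside all 54 genes and all 5946 features. Symbols are arrays and bars are their mean ± SD; every branch's bar crosses 0, and the medians of all features lie within 0.1 of it.

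Read in the signs as deposited, the same values gave more genes with small p-values, here as in the whole table. Again 0 of 54 passed after adjustment over all features, against 0.0% of all features (smallest adjusted p 0.42). An unadjusted p below 0.05 was reached by 7 of the 54, against 11.7% of all features. All 7 had positive means, which 6.04% of all features had at that threshold, and 5.65% had negative ones. A single sign on every array was found for 10 genes, or 18.5%, against 24.8% of all features. Of these 8 were positive and 2 negative, against 12.4% and 12.3%. A positive mean was found for 29 of the 54, against 46.5%, and a mean of at least 0.5 in size for 12, against 23.2%. The median of the 54 was 0.11, against -0.035 for all features.

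The 7 genes came from 3 branches, 4 of them phospholipid genes. CHO2 had deposited values of 0.90, 1.01, 0.049 and 0.99 on arrays 1 to 4 (mean 0.74 ± 0.46, limma adjusted p = 0.42, positive on 4 of 4). Array 3 was near 0 and the others were near 0.99. PLB2 had 0.95, 0.53, 0.39 and 0.94 (mean 0.70 ± 0.28), the tightest of the 7. LPP1 had 0.96, 1.07, -0.075 and 0.65 (mean 0.65 ± 0.51). It was below 0 on array 3 alone, by less than 0.1. PSD2 had 0.043, 0.59, 1.01 and 0.62 (mean 0.57 ± 0.40). It was near 0 on array 1 and positive on all 4. LCB1 of the ceramide branch had 0.90, 0.042, 0.73 and 1.07 (mean 0.69 ± 0.45), and array 2 was near 0. In the sterol branch, ERG1 had 0.76, -0.050, 0.76 and 0.85 (mean 0.58 ± 0.42). OSH6 had 0.11, 0.97, 0.57 and 0.55 (mean 0.55 ± 0.35). ERG1 was just below 0 on array 2, and OSH6 was positive on all 4. For each of the 7 the adjusted p was 0.42. After centring of the print blocks these 7 means lay between 0.42 and 0.78.

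Other genes had 1 sign in this reading without reaching an unadjusted p of 0.05. ARE1 had 1.11, 0.050, 0.17 and 0.67 on arrays 1 to 4 (mean 0.50 ± 0.49), LAC1 had 0.26, 0.045, 0.26 and 0.85 (mean 0.35 ± 0.35), and OPI1 averaged 0.20 ± 0.18. On the negative side ERG29 had -0.98, -0.12, -0.045 and -0.32 (mean -0.37 ± 0.43) and PCT1 -0.73, -0.056, -0.10 and -0.47 (mean -0.34 ± 0.32). Of the wide-ranging genes, ERG3 had 1.53, 1.69, -0.22 and -0.45 (mean 0.64 ± 1.13). On arrays 1 and 2 alone it averaged 1.61 (limma adjusted p = 0.041, positive on 2 of 2), the 1 gene of the 54 past the threshold there, against 3.45% of all features. On arrays 3 and 4 it was below 0. Branch medians in deposited signs were 0.16 for sterol, 0.087 for ceramide, 0.030 for phospholipid, 0.10 for fatty acid and -0.24 for storage genes. The sterol median thus had opposite signs in the 2 readings. Only one reading can hold the strain difference, and the values do not tell which.

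**Figure D3:**
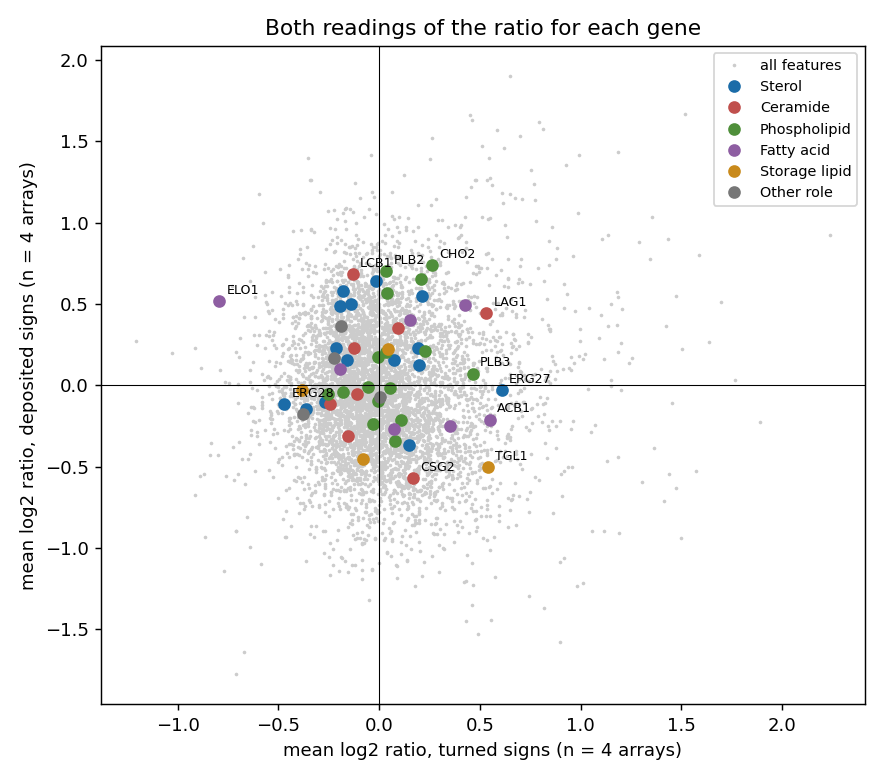
Mean log2 ratio of each feature in turned signs (x axis) and in deposited signs (y axis), each over 4 arrays. Grey points are all features and coloured points the 54 genes by branch; ELO1 lies farthest left and CHO2 highest among the 54, all within the cloud of all features.

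How far arrays agreed over the 54 genes is given as a description. In deposited signs Pearson's r over the 54 genes was 0.23 for arrays 1 and 2, 0.37 for arrays 3 and 4, -0.12 for arrays 1 and 4 and -0.063 for arrays 2 and 3. These 4 pairs have opposite dye orientation. For the pairs of 1 orientation it was -0.023 for arrays 1 and 3 and -0.26 for arrays 2 and 4. Over all 5946 features the 6 values lay between -0.022 and 0.34. Genes printed in the same block share its local offset, so the points are not independent.

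A pair of probes was available for 5 of the genes, which shows how far probes of 1 gene differed within an array. ERG27 read -0.032, 2.31, 0.60 and -0.11 on arrays 1 to 4 with its first probe and 1.59, 0.25, 0.40 and -0.14 with the second. The high value on array 2 came from the first probe, and the high value on array 1 from the second. LCB4 read -1.32, -0.35, -0.11 and -0.32 with the first probe and 0.54, -0.35, 0.40 and -0.43 with the second, which differ most on array 1. LCB3 was the closest match, with 0.10, -1.35, 0.24 and 0.31 and 0.51, -1.43, -0.22 and 0.60. SCT1 averaged 0.27 and -0.047 by its probes, and INO80 -0.16 and 0.16. Over the 5 genes and 4 arrays the probes had 1 sign in 14 of 20 cases, and the widest gap was 2.06. That gap is the largest of the 20 and lies on 1 array, so its size cannot be set against means over 4 arrays. The ERG27 probes lie in print blocks 42 and 44, so block offsets enter the gap as well.

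**Figure D4:**
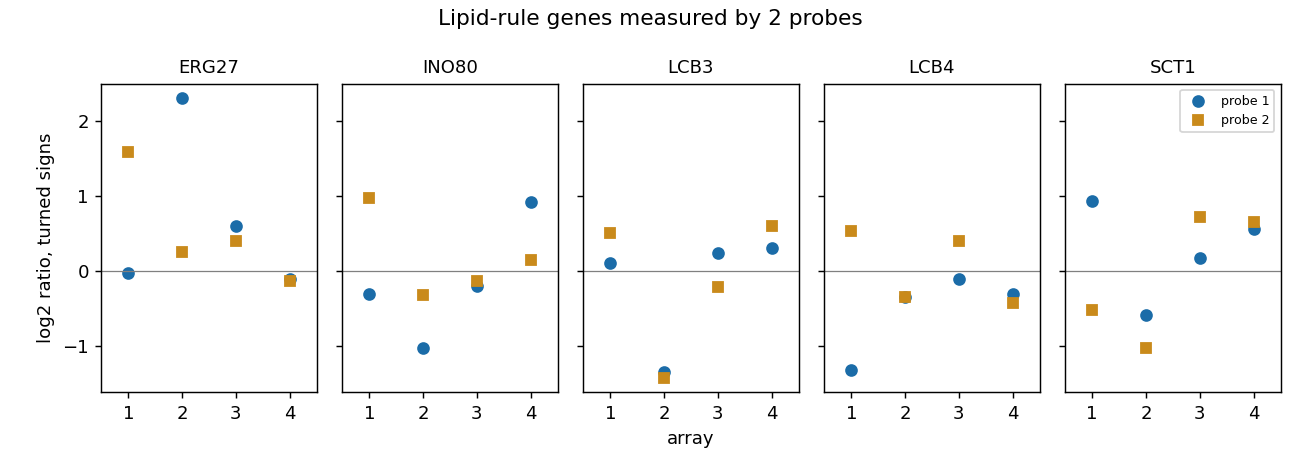
Log2 ratio (y axis, turned signs) of the 2 probes of each of 5 genes on arrays 1 to 4 (x axis). Circles are the first probe and squares the second; they nearly coincide for LCB3 on array 2 and lie 2.06 apart for ERG27 on array 2.

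Centring by print position moved some means by as much as their size. Centring each of the 48 print blocks changed the sign of the mean for 10 of the 54. CHO2, FAA3 and DPP1, all printed in block 42, averaged -0.0052, -0.11 and -0.039 after centring and 0.26, 0.16 and 0.23 before it. ERG27, with its first probe in that block, averaged 0.37 after centring. ELO1, TGL1 and PLB3 moved little, to -0.82, 0.64 and 0.46.

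**Figure D5:**
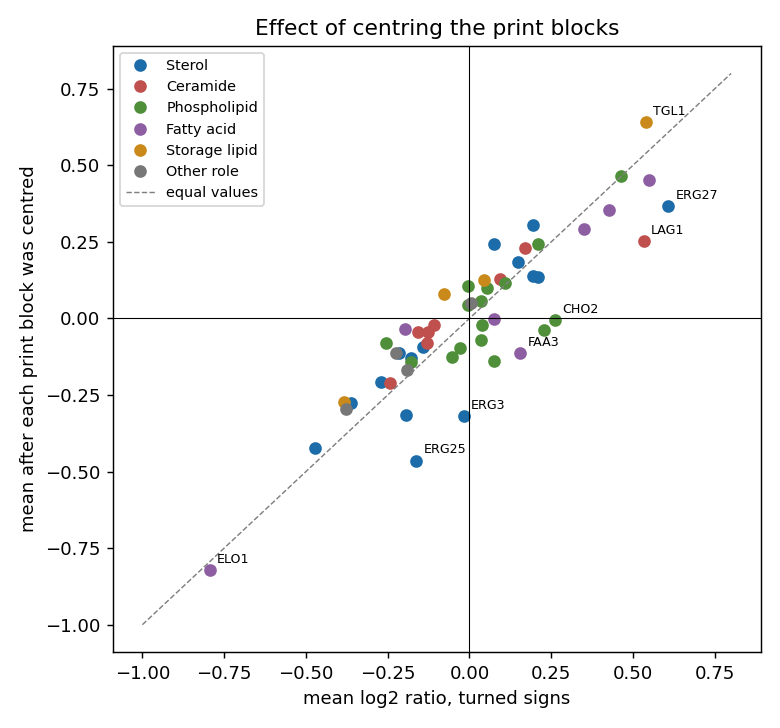
Mean log2 ratio of each of the 54 genes in turned signs, before (x axis) and after each print block was centred on its median (y axis), by branch. The dashed line marks equal values; ERG25, ERG3, LAG1, CHO2, DPP1 and FAA3 lie well below it.

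Further lipid genes outside the naming pattern gave no call either. Of 78 listed from general knowledge, 46 were measured, and 0 of them passed the adjusted threshold in either reading. In turned signs 0 of 46 reached an unadjusted p below 0.05 (background 1.88%), 20 had a positive mean and the median was -0.041. The lowest mean was -0.55 ± 0.86 for TSC13, a reductase gene of very long-chain fatty acid synthesis. The highest was 0.40 ± 0.70 for SPO14, a phospholipase D gene.

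In deposited signs 10 of the 46 reached it, with 7 positive and 3 negative means. That is a larger share than the 11.7% of all features, and the difference was not tested. FOX2 and PXA2, of fatty acid breakdown in peroxisomes, averaged 1.15 ± 0.58 and 0.89 ± 0.61. The phosphoinositide phosphatase gene SAC1 averaged 0.89, SPT23, an activator gene of OLE1, 0.67, and CSH1, a relative of SUR1, 0.65. The acetyl-CoA synthetase gene ACS2 averaged 0.61, and NCP1, the electron donor of Erg11, 0.60. On the negative side stood PHS1, of very long-chain fatty acid synthesis, at -1.03, ETR1, of mitochondrial fatty acid synthesis, at -0.94 and SPO7, of the phosphatidate phosphatase activator, at -0.94. The smallest adjusted p among these 10 was 0.42 (limma). After centring of the print blocks the 7 positive means lay between 0.41 (SAC1) and 1.23 (FOX2). The 3 negative ones lay between -0.96 and -0.82.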

How the data were processed

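The measurements are 4 two-colour arrays, each with RNA of CadA and of D398A. The authors deposited 1 normalized log ratio per probe and array, taken here as log2. Per the submitters' processing notes, limma 3.2.1 was used. The sources used here state neither the base of the logarithm nor the numerator, normalization or background correction. Base 2 was taken, as limma works on it. Depth has no meaning for arrays, and their number limits the precision.

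Of 6216 probes, 6162 had values on all 4 arrays, 3344 had 1 platform symbol, 387 several and 2485 none. Of probes with several symbols, 13 carry a symbol of the lipid pattern and were not named. All 54 gene symbols were the same in the R64 gene table, from which systematic names were taken. No coordinates are given, since no source used here names the build of the probes. No sequences were used here. Probes of a gene were averaged.

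Means over the arrays were tested against 0 over all 5946 features with lmFit and eBayes in limma 3.58.1 under R 4.3.3. The tests were two-sided and the threshold was a Benjamini-Hochberg adjusted p of 0.05. The fit was also run on simulated data with independent normal noise and no print blocks. That run gives no error rate or power for these arrays.

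Every member is named with its mean in turned signs, and some with their mean in deposited signs as well. Values per array are given for the highest and lowest mean of each branch, for genes with 1 sign on all arrays and a mean of at least 0.25 in size, for an unadjusted p below 0.05, and for 20 listed key genes, of which 12 were measured. Values per array of some others were added after their values were seen. Further lipid genes are named for an unadjusted p below 0.05 or the highest or lowest mean, and KAR2 because it sets the side. Alternatives left out arrays, scaled or weighted them, centred print blocks, or took other probes or signs. The members, branches and lists were chosen with earlier results of these data known.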

Additional observations from a re-analysis of the deposited data

Results flagged for a closer look

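Single arrays stood apart from the other 3 for some genes, by the gap to the nearest array against the whole range (Dixon's 95% value). In turned signs these were LAG1 at 2.29, CSG2 at -1.46 and TGL4 at -1.56, all on array 2, and LCB4 at 0.14 on array 3. In deposited signs they were LAG1 at 2.29 and ERG1 at -0.050 on array 2, TGL1 at -2.32 and ERG26 at -0.43 on array 1 and CHO2 at 0.049 on array 3. That is 4 of 54 genes in turned signs, or 7.41%, against 5.84% of all 5946 features by the same measure. In deposited signs it is 5 of 54, or 9.26%, against 6.63%. Chance alone flags about 1 in 20 where the arrays have equal spread. LCB4 is a mean of 2 probes, which read -1.32 and 0.54 on array 1. Neither probe alone set array 3 apart.

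For 10 genes the turned values of both arrays of 1 dye orientation lay on one side of 0 and those of the other orientation on the opposite side. Their means in deposited signs were 0.74 for CHO2, 0.70 for PLB2, 0.69 for LCB1, 0.57 for PSD2, 0.55 for OSH6, 0.50 for ARE1, 0.35 for LAC1, 0.20 for OPI1, -0.34 for PCT1 and -0.37 for ERG29. The limma fit in deposited signs tests this difference between orientations, and none of the 10 passed after adjustment (smallest adjusted p = 0.42). Among all features 24.8% had this pattern.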

How the results depend on the processing

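The number of the 54 genes past the adjusted threshold in turned signs was 0 under every alternative run: arrays scaled to 1 spread, print blocks centred, array weights, a fit with strain and dye coefficients, each array left out, arrays of 1 orientation alone, arrays 1 and 2 alone, arrays 3 and 4 alone, 1 probe per gene and genes with a single probe. In deposited signs it was 0 except on arrays 1 and 2 alone, where it was 1: ERG3 averaged 1.61 there (limma adjusted p = 0.041), a fit on 2 values per gene that leans on the spread of all features and in which 3.45% of all features passed. The median of the 54 in turned signs ran from -0.11 to 0.10 with 1 array left out. The sterol median ran from -0.17 to 0.17 with 1 array left out. It was 0.29 on the arrays with CadA in Cy3 alone and 0.16 in deposited signs, and the cause of these changes was not tested. The other medians moved by less than the SD of their array medians, but each of these SDs was larger than the median itself. The signs of the other branch medians were not stable either. The ceramide median was 0.035 without array 1. Without array 2 the phospholipid median was -0.023 and the storage median 0.15. The fatty acid median stayed positive with any 1 array left out, but was -0.00050 with centred blocks and -0.066 from arrays 1 and 3. Single genes had no call to lose, but the sign of their mean changed for 18 of 54 without array 1, 14 without array 2, 5 without array 3 and 13 without array 4. It changed for 10 with centred blocks, 6 with arrays scaled, 12 with array weights, 20 on arrays 3 and 4 alone and 24 in deposited signs. In deposited signs 5 gene means moved by more than the SD between arrays: to 0.52 for ELO1, -0.21 for ACB1, -0.029 for ERG27, 0.37 for LAG2 and 0.073 for PLB3. With the first probe alone 1 did, LCB4, to -0.52. Membership by the updated symbol gave the same 54 genes. Signal over background was not analysed here, so genes near background are not marked.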
